A study of Homo sapiens with 40 samples.

Results

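The transmembrane mucins and the B7 family ligand VTCN1 were followed through 40 RNA libraries from spheroids of 2 squamous carcinoma lines, FaDu (labelled as hypopharyngeal) and Kyse30 (labelled as esophageal). The members were all genes in the count table whose symbol is MUC followed by a number and an optional letter, together with VTCN1. This gave 7 of 12655 genes: MUC1, MUC3A, MUC12, MUC15, MUC16, MUC20 and VTCN1. MUC15, MUC20 and VTCN1 were singled out because they were lower in invasive than in non-invasive Kyse30 cells, so their values in libraries of those 2 groups are described here without a test. MUC1, MUC3A, MUC12 and MUC16 were not chosen on any level and are tested throughout.

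Both lines carried the photoconvertible protein Dendra2, were labelled wild type, were embedded as spheroids in type I collagen and were treated for 72 h. Each line had 5 groups of 4 libraries. They were serum-free medium, 9 nM EGF sorted into non-invasive and into invasive cells, 9 nM EGF with 10 µg/mL of cetuximab, and 9 nM EGF with 100 nM of AZD6244. Cetuximab is an antibody that blocks the EGF receptor from outside the cell, and AZD6244 inhibits the kinases MEK1/2, which act downstream of that receptor. Light conversion of Dendra2 in 10 to 12 invasive areas per spheroid, over 40 spheroids per treatment, marked the cells to be sorted, and more than 1000 cells per group were collected. The serum-free, cetuximab and AZD6244 libraries were labelled as unselected. One label field calls the non-invasive EGF cells invasive as well; the sample titles were followed. Both are established cell lines, cultured without stroma or immune cells. The labels number the samples 1 to 4 but do not say that these came from separate cultures, so p-values reflect only how much these samples vary, and that variation could be technical. Comparisons with serum-free medium share the same 4 serum-free libraries, and those with non-invasive cells share the same 4 non-invasive ones, so they are not independent of each other.

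Transmembrane mucins are large glycoproteins of the apical epithelial surface, with an extracellular stretch densely covered by O-linked sugars. They form a hydrated barrier, and the cytoplasmic tail of MUC1 also binds signalling proteins such as receptor tyrosine kinases and beta-catenin. MUC16 carries the CA125 antigen. VTCN1, also called B7-H4, is a surface ligand that inhibits T cells and is expressed by several carcinomas.

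The total gene count was 2312126 to 5669262 per FaDu library and 2538447 to 4534339 per Kyse30 library, with one exception. Invasive Kyse30 replicate 1 had 463124 counts and 5281 genes detected, and a count of 0 in it allows a level of up to 6.44 CPM (counts relative to library size, after TMM scaling). Non-invasive Kyse30 replicates 1 and 3 also stood apart, with 6.27% and 9.63% of counts from the nuclear RNA MALAT1 against 1.68% and 1.91% in replicates 2 and 4; the invasive library of 463124 counts had 8.18% and the other invasive ones 1.93% to 3.26%. Mitochondrial transcripts took 14.3% to 15.8% of counts in serum-free FaDu, 7.50% to 11.5% in its non-invasive, 7.02% to 11.0% in its cetuximab and 7.87% to 14.6% in its AZD6244 libraries. In Kyse30 they took 19.7% to 23.8% in serum-free medium, 8.22% to 19.3% in non-invasive cells, 8.54% to 16.5% with cetuximab and 9.39% to 13.4% with AZD6244. The serum-free libraries were above these other groups of their line without overlap, except for AZD6244 in FaDu. Invasive FaDu libraries took 10.4% to 12.0%. Invasive Kyse30 replicate 1 took 26.6%, above every serum-free library, and the other invasive Kyse30 libraries took 11.7% to 13.0%. The part of the mitochondrial share in the results was not tested. Of 8 squamous epithelial markers 7 were in the table, with summed levels of 2032 to 4510 CPM in FaDu and 1095 to 3395 CPM in Kyse30. Of the fibroblast, leukocyte and endothelial markers, COL1A1, CD68 and CDH5 were in the table. COL1A1 reached at most 24.7 CPM and CD68 at most 53.7 CPM, in the library of 463124 counts. CDH5 was at 16.4 to 34.6 CPM in serum-free Kyse30 and at 0 to 2.80 CPM in invasive Kyse30; its part in the results was not tested.

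The genes lie on chromosomes 1, 3, 7, 11 and 19 of GRCh38 by the GENCODE annotation used here. MUC1 is at chr1:155185824-155192916 and VTCN1 at chr1:117143587-117210960, both on the minus strand. MUC16 is at chr19:8848844-8981342 and MUC15 at chr11:26559033-26572233, also on the minus strand. MUC20 is at chr3:195720882-195741123, and the neighbours MUC3A and MUC12 are at chr7:100949555-100968346 and chr7:100969623-101018949, all on the plus strand. The long non-coding RNA MUC20-OT1 overlaps exons of MUC20 on the same strand and is counted separately in the table. ANO3 overlaps MUC15 on the opposite strand; the labels do not say whether counting used strand, so reads from overlapping genes cannot be told apart with certainty. Mucin repeats are also similar within the family, so the split of reads between MUC3A and related copies is uncertain.

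Promoter windows of 300 bases (250 before to 50 after the RefSeq start, GRCh38.p14) were found for 5 of the 7 genes, and not for MUC15 and MUC20. The 3 shown belong to the genes whose levels differed most between AZD6244 and cetuximab in FaDu. Capitals mark matches to the motifs searched on both strands: AP-1 (TGANTCA), a pair of ETS cores (CCGGAA, and also AGGAAG), TEAD (CATTCC), SP/KLF (CCGCCC) and the TATA box (TATAAA). All are printed 5′ to 3′ on the gene's minus strand. The RefSeq start of MUC16 lies upstream of, and outside, the GENCODE position given above, so the 2 annotations disagree on where this gene starts and its window may not be the promoter in use.
VTCN1, chr1:117210878-117211177: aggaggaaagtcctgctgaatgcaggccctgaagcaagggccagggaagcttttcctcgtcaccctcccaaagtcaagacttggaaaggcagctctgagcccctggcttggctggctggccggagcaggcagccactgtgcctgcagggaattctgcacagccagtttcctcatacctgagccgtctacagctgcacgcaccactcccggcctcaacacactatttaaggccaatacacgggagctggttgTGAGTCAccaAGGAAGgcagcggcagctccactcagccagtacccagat
MUC1, chr1:155192866-155193165: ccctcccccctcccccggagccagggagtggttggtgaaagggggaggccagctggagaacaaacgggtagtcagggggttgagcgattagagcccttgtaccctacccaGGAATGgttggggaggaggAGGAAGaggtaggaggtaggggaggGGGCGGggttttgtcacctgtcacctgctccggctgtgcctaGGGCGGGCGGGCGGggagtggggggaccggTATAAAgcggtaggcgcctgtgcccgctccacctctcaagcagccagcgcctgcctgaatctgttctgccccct
MUC16, chr19:9065702-9066001: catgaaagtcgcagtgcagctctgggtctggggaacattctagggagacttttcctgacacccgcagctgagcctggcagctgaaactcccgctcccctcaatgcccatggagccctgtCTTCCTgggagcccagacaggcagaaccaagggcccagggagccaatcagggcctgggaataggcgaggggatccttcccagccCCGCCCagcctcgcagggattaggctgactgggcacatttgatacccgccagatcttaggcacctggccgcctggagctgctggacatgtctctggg
The VTCN1 window held an AP-1 match, TGAGTCA, from position +2, counted from +1 at the start, followed by AGGAAG from +12. Of 27305 promoter windows of the same length, 7.76% held an AP-1 match and 33.7% held AGGAAG or its reverse complement. The MUC1 window held TATAAA at -24, found in 12.0% of windows, and 4 matches to GGGCGG, 3 of them overlapping; 44.6% of windows held that motif. It also held AGGAAG and, on the other strand, a match to the TEAD motif, which 14.0% of windows hold on either strand. The MUC16 window held CTTCCT, which is AGGAAG on the other strand, and a match to CCGCCC, and neither it nor the MUC1 window held the AP-1 motif. The letters CCGGAA, present in 17.6% of windows, was in none of the 5. These are letter matches only.

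In serum-free FaDu spheroids 5 of the 7 genes were expressed, and all 5 were far lower in non-invasive cells under EGF (edgeR quasi-likelihood test, Benjamini-Hochberg adjusted over 12131 genes). Across all genes tested in that comparison 24.7% were called lower. MUC3A and MUC12 did not pass the filter on low counts in FaDu; MUC3A was at 0.224 to 2.80 CPM in every group and MUC12 had 0 counts in all serum-free libraries and 10 counts over the non-invasive ones. MUC15, MUC16 and VTCN1 passed the filter largely through the serum-free libraries, so the count of 5 is a description and not a measure of the family. The EGF cells were sorted and the serum-free cells were not, so EGF and sorting cannot be told apart here. In bulk RNA, fewer cells that express a gene and less RNA per cell cannot be told apart.

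MUC1 stood at 95.2, 103, 106 and 98.3 CPM in serum-free FaDu and at 7.62, 8.62, 5.80 and 13.3 CPM in non-invasive EGF cells. No library of one group reached the other. The log2 fold change was -3.51 ± 0.26 (SE; edgeR adjusted p = 2.37e-11), an 11.4-fold fall. Among the 4 invasive EGF libraries MUC1 had 11, 0, 4 and 1 counts, or 2.63, 0, 1.22 and 0.239 CPM, again with no overlap with the non-invasive cells. That further fall was -2.98 ± 0.40 on the log2 scale (edgeR adjusted p = 5.14e-05) and made MUC1 the 1 member called between invasive and non-invasive FaDu cells, where 2.34% of all genes were lower. Replicate 1 held 11 of the 16 invasive counts; the difference was -4.16 without replicate 1 and -2.35 without replicate 4 of each group, and stayed called (highest adjusted p = 0.0068). MUC20 was at 0 to 2.69 CPM in invasive and at 1.34 to 3.14 CPM in non-invasive cells, a difference that did not pass the test (log2 -1.40 ± 0.71, edgeR adjusted p = 0.34). MUC15, MUC16 and VTCN1 had only 0, 13 and 3 counts over the non-invasive libraries, so a further fall of these genes could hardly be called.

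VTCN1 stood at 22.9, 24.9, 22.4 and 30.0 CPM in serum-free FaDu. Under EGF it had 3 counts over the 4 non-invasive libraries and 0 over the 4 invasive ones. The ratio of serum-free to non-invasive levels was 147, with an exact 95% counting interval of 49.8 to 715 (edgeR adjusted p = 2.61e-09). Counting intervals cover counting error only, since no molecular identifiers were available.

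MUC15, a membrane-bound mucin, had 134 counts over the serum-free FaDu libraries, at 5.96 to 15.5 CPM. It had 0 counts in every EGF-treated sorted library, so it was at least 54.6-fold lower in non-invasive cells, taking 3 counts over the group as the limit (edgeR adjusted p = 1.38e-06).

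MUC16 fell from 20.1 ± 1.19 CPM (SD, n = 4) to 0.781 ± 1.42 CPM, a log2 fold change of -4.67 ± 0.75 (edgeR adjusted p = 1.37e-05). Of its 13 counts in non-invasive cells 12 came from replicate 4, and without replicate 4 of each group the log2 fold change was -7.56. MUC20, a mucin that binds the receptor MET, fell from 54.7 ± 11.8 to 2.26 ± 0.753 CPM (log2 -4.58 ± 0.48, edgeR adjusted p = 3.72e-08). The overlapping MUC20-OT1 fell less, by 1.56 ± 0.24 on the log2 scale (edgeR adjusted p = 7.37e-06).

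**Figure D1:**
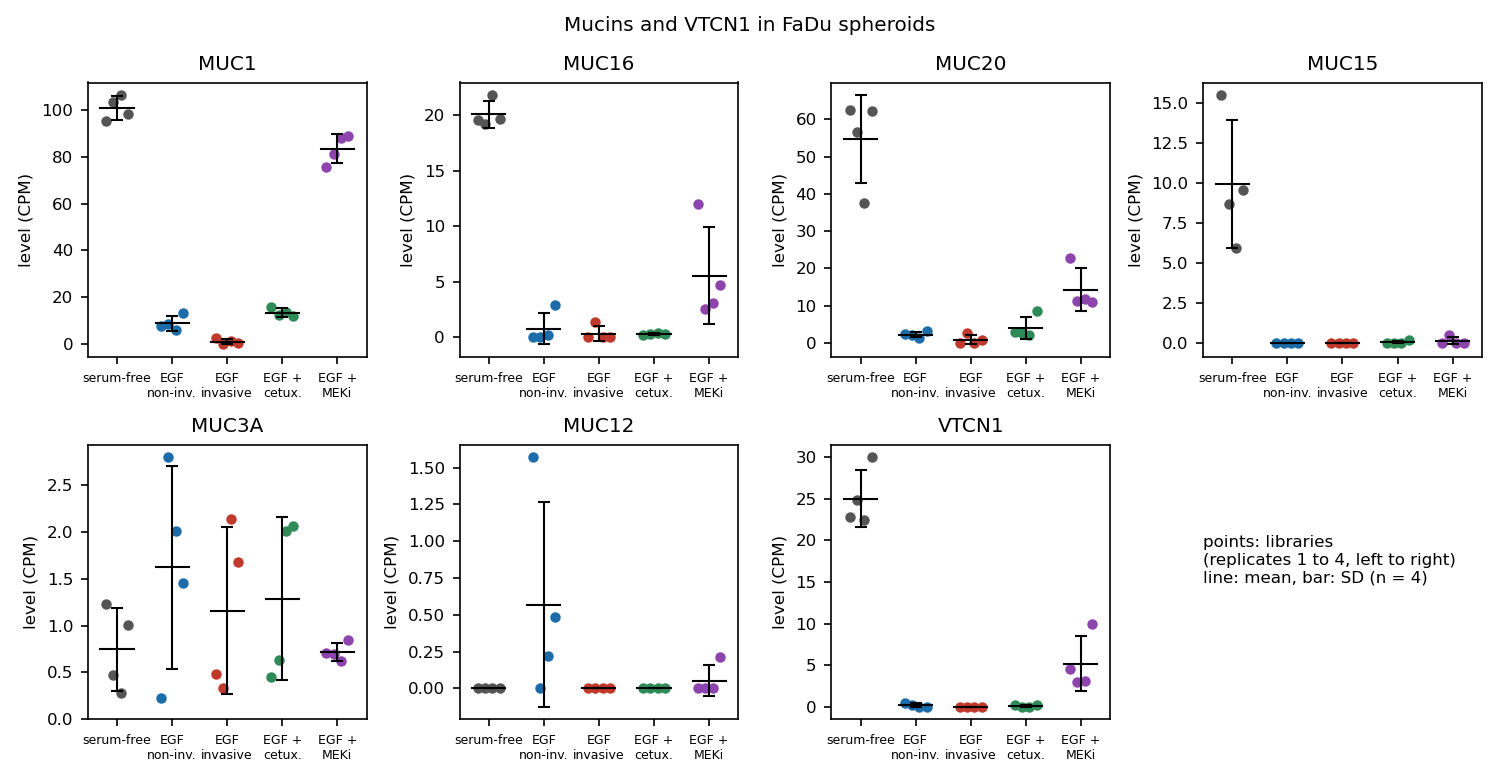
Levels (CPM, linear axes that differ between panels) of the 6 mucins and VTCN1 in each FaDu library; points are replicates 1 to 4 from left to right, horizontal lines group means and bars SD (n = 4). MUC1 was at 101 CPM on average without serum or EGF and at 83.4 CPM with EGF and the MEK inhibitor, while VTCN1 reached 25.0 and 5.17 CPM in the same groups.

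The 2 inhibitors differed sharply in FaDu. With EGF and AZD6244, 4 of the 5 genes rose above the non-invasive EGF cells, against 14.8% of all genes tested. MUC16 and VTCN1 passed the filter largely through the serum-free and AZD6244 libraries, and MUC15 through the serum-free ones, so this count is a description. The inhibitor libraries were unselected and the non-invasive ones sorted, so in each line the inhibitor and the sorting cannot be told apart in comparisons between these groups; serum-free and inhibitor libraries were all unselected. MUC1 reached 75.8, 81.2, 88.0 and 88.7 CPM, all above the non-invasive libraries and all below the serum-free ones (log2 3.24 ± 0.26 over non-invasive cells, edgeR adjusted p = 3.32e-10). Against serum-free medium its difference was -0.27 ± 0.22 (edgeR adjusted p = 0.43). VTCN1 reached 4.58, 3.00, 3.10 and 10.0 CPM, a ratio of 30.5 to the non-invasive cells (exact counting interval 10.1 to 151; edgeR adjusted p = 9.47e-06).

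MUC20 stood at 22.9, 11.3, 11.8 and 11.1 CPM with AZD6244 (log2 2.62 ± 0.49 over non-invasive cells, edgeR adjusted p = 2.37e-04), while MUC20-OT1 rose by 0.91 ± 0.24. MUC16 stood at 12.0, 2.54, 3.10 and 4.68 CPM (log2 2.77 ± 0.77, edgeR adjusted p = 0.0081). For both genes replicate 1 was the highest; without replicate 1 of each group the MUC16 difference was 1.73 (adjusted p = 0.11), without replicate 3 its adjusted p was 0.051, and without replicate 4 the difference was 5.72. MUC15 had 2 counts over the 4 AZD6244 libraries and was not called.

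With AZD6244 4 of the 5 genes, all except MUC1, were below their serum-free levels, 4 genes against 8.63% of all genes lower. MUC15, MUC16 and VTCN1 passed the filter largely through the serum-free libraries, so this count is a description. VTCN1 differed by -2.26 ± 0.42, MUC20 by -1.96 ± 0.40 and MUC16 by -1.90 ± 0.61 on the log2 scale (edgeR adjusted p = 3.62e-04, 0.0011 and 0.029). The MUC16 call did not hold without replicate 2, 3 or 4 of each group (adjusted p = 0.074, 0.19 and 0.062) or with DESeq2 (0.15). MUC15 was 78.8-fold lower (exact counting interval 21.4 to 658).

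With EGF and cetuximab none of the 5 genes was called against non-invasive EGF cells by edgeR, where 8.56% of all genes were called. MUC15, MUC16 and VTCN1 had 1, 6 and 2 counts over the cetuximab libraries. Over the non-invasive ones they had 0, 13 and 3 counts, so these genes could hardly be called in this comparison. MUC1 was at 15.9, 12.3, 13.9 and 11.9 CPM, overlapping the non-invasive range (log2 0.61 ± 0.27, unadjusted p = 0.031, edgeR adjusted p = 0.17). It was the 1 member under an unadjusted 0.05, and DESeq2 called it (adjusted p = 0.042) while limma-voom called none. MUC20 was at 2.91, 2.84, 2.21 and 8.60 CPM, with only replicate 4 above all non-invasive libraries (log2 0.92 ± 0.52, edgeR adjusted p = 0.32). Against serum-free medium all 5 were lower under cetuximab, where 21.1% of all genes were. Since MUC15, MUC16 and VTCN1 passed the filter largely through the serum-free libraries, this count is also a description. MUC1 differed by -2.90 ± 0.25, MUC20 by -3.66 ± 0.44 and MUC16 by -5.82 ± 0.83 on the log2 scale (edgeR adjusted p = 4.85e-10, 4.37e-07 and 3.82e-06). VTCN1 had 2 counts over the 4 cetuximab libraries, a 234-fold lower level (exact counting interval 64.2 to 1938).

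Compared directly, AZD6244 left higher levels than cetuximab for MUC1 (log2 2.63 ± 0.25), MUC16 (3.93 ± 0.87), MUC20 (1.70 ± 0.44) and VTCN1 (48.6-fold, exact counting interval 13.0 to 407), with edgeR adjusted p = 2.91e-08, 0.0020, 0.0082 and 1.15e-05. Of all genes 8.54% were higher. MUC16 and VTCN1 had few counts with cetuximab and passed the filter largely through other groups, so the number of genes called is a description. The MUC20 difference was not called without replicate 1 of each group (1.27, adjusted p = 0.078). The inhibitors were given at 1 dose each, and the libraries do not say how far either blocked its target.

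Kyse30 began from a different mucin profile. In serum-free medium 5 genes were higher than in FaDu and 1 was lower, where 21.5% and 22% of all genes were (edgeR over all 40 libraries). MUC3A and MUC12 did not pass the filter in FaDu alone and entered this fit through Kyse30, so the count of 5 is a description. MUC16 stood at 661, 901, 838 and 837 CPM (log2 5.32 ± 0.50 above FaDu, adjusted p = 7.01e-11). MUC3A, an intestinal-type mucin, was at 14.8 to 39.4 CPM (5.18 ± 0.62). VTCN1 was at 80.2, 122, 90.4 and 111 CPM (1.99 ± 0.31) and MUC15 at 26.7, 19.0, 31.0 and 30.1 CPM (1.43 ± 0.44, adjusted p = 0.0078; 0.074 without replicate 3 and 0.059 without replicate 4 of each group). MUC12 was at least 21.6-fold higher, but 40 of its 49 counts came from 1 library. MUC1 was lower, at 11.4, 11.2, 16.9 and 0.847 CPM (-3.32 ± 0.44, adjusted p = 4.08e-08). MUC20, at 78.6 to 97.0 CPM, was not called (0.65 ± 0.41, edgeR adjusted p = 0.20). The cell line and any batch of library preparation cannot be told apart.

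**Figure D2:**
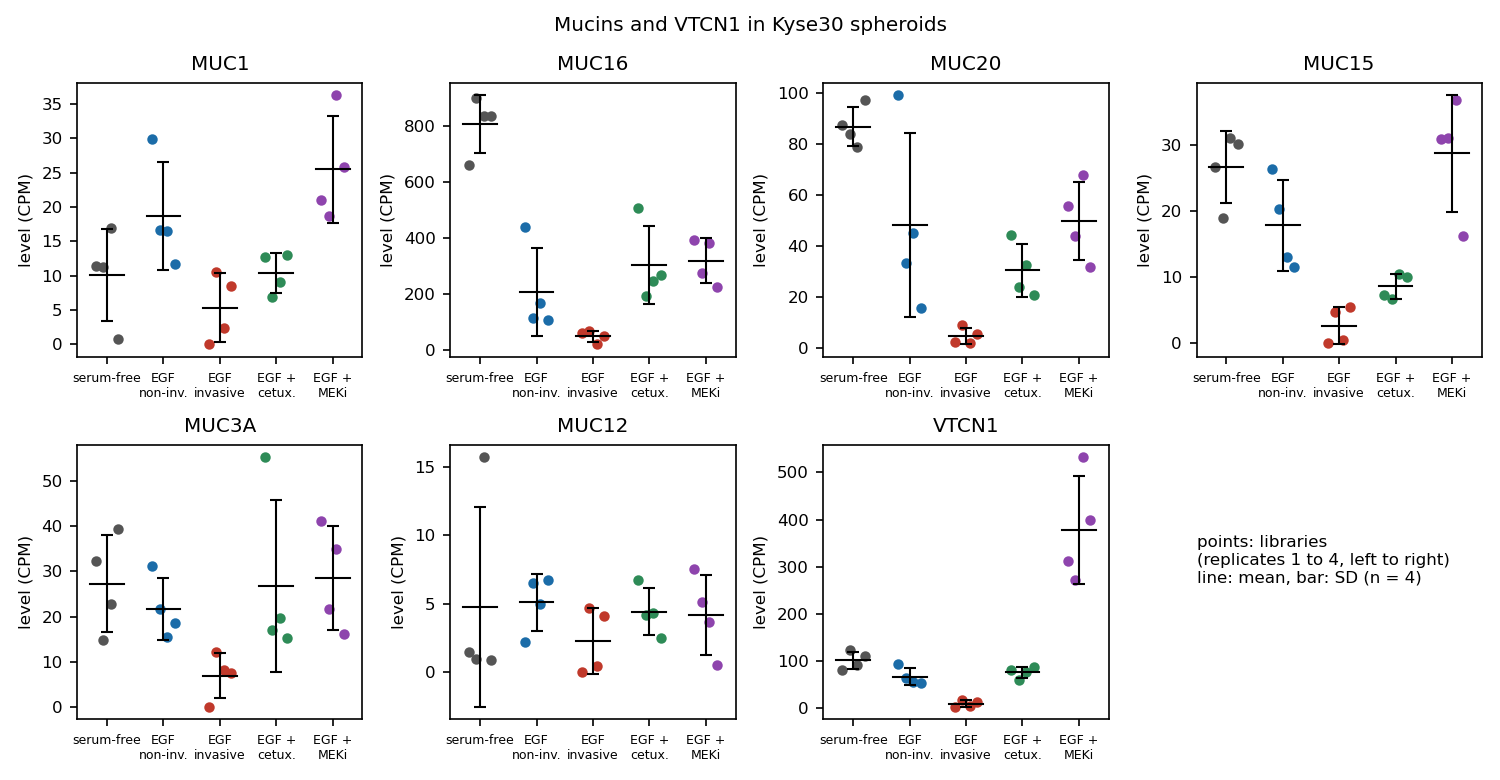
Levels (CPM, linear axes that differ between panels) of the same genes in each Kyse30 library; points are replicates 1 to 4 from left to right, horizontal lines group means and bars SD (n = 4). VTCN1 averaged 378 CPM with EGF and the MEK inhibitor against 101 CPM in serum-free medium, and invasive replicate 1 is the library of 463124 counts.

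Within Kyse30 the 3 chosen genes were lower in invasive than in non-invasive cells, as the choice fixed, and what follows describes them. The mean level of each of the 7 genes was the lowest of the 5 groups in invasive cells. How many of all genes share this was not counted, and for the 3 chosen genes it is in part fixed by the choice. For MUC12 the medians went the other way, at 1.21 CPM in serum-free medium and 2.24 CPM in invasive cells. The invasive means of MUC1, MUC3A, MUC12 and MUC15 include a 0 from the library of 463124 counts, where a 0 allows up to 6.44 CPM. MUC20 was at 2.15, 9.01, 2.03 and 5.42 CPM in invasive cells and at 99.1, 33.4, 45.0 and 15.6 CPM in non-invasive ones, a fitted log2 difference of -3.18 ± 0.51. VTCN1 was at 2.15, 17.7, 4.88 and 12.9 CPM against 93.7, 63.7, 55.4 and 53.6 CPM (-2.61 ± 0.35). MUC15 was at 0, 4.66, 0.407 and 5.42 CPM against 26.4, 20.4, 13.1 and 11.5 CPM (-2.44 ± 0.51). The groups did not overlap for any of the 3, which is in part fixed by the choice and supports nothing.

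The same differences without the library of 463124 counts were -3.07 for MUC20, -2.46 for VTCN1 and -2.29 for MUC15. Without non-invasive replicates 1 and 3, the 2 non-invasive libraries with the higher MALAT1 share, they were -2.22, -2.45 and -2.29. The MUC20 level in non-invasive cells averaged 48.3 CPM over 4 libraries and 24.5 CPM over replicates 2 and 4, so its size depended on those libraries. MUC20-OT1 averaged 71.3 CPM in the invasive libraries against 162 CPM in the others under EGF alone (-1.20 ± 0.32, edgeR adjusted p = 0.10). Its ranges overlapped, at 51.9 to 83.7 CPM in invasive and 65.0 to 270 CPM in non-invasive libraries.

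Among the 4 mucins the choice did not use, MUC16 was called lower in invasive Kyse30 cells, where 0.342% of all genes were lower. It stood at 58.0, 65.3, 18.3 and 47.4 CPM against 439, 112, 168 and 105 CPM (-2.15 ± 0.41, edgeR adjusted p = 0.016). The groups did not overlap, but replicate 1 of the non-invasive cells stood well above the other 3. Without non-invasive replicates 1 and 3 the difference was -1.26 (adjusted p = 0.38). The call was also lost with limma-voom (0.21) and without replicate 2, 3 or 4 of each group (0.10, 0.46 and 0.11), and kept without the library of 463124 counts (-2.22, 0.049), where 1.37% of all genes were lower. MUC1 (-1.54 ± 0.58), MUC3A (-1.41 ± 0.51) and MUC12 (-0.90 ± 0.87) did not pass (edgeR adjusted p = 0.24, 0.22 and 0.73). None of these 4 differed between the lines in its invasive against non-invasive difference by edgeR, DESeq2 or limma-voom, with 0 under an unadjusted 0.05 in edgeR and 0.182% of all genes called. For MUC1 that difference between lines was 1.51 ± 0.76 (edgeR adjusted p = 0.53).

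Non-invasive EGF cells of Kyse30 had less MUC16 than serum-free spheroids (-1.97 ± 0.39, edgeR adjusted p = 0.0012), with no overlap between groups; 4.76% of all genes were lower. Without non-invasive replicates 1 and 3 the difference was -2.88, and without replicate 1 of each group it was -2.75. MUC1 was 18.7 ± 7.80 CPM under EGF and 10.1 ± 6.70 CPM without (SD, n = 4; log2 0.88 ± 0.55, edgeR adjusted p = 0.33), and MUC3A differed by -0.33 ± 0.47 (0.72). The chosen genes differed by -0.58 ± 0.43 (MUC15), -0.85 ± 0.42 (MUC20) and -0.60 ± 0.30 (VTCN1), given as a description. In both lines the EGF cells were sorted and the serum-free cells were not, so EGF and sorting cannot be told apart. The difference of non-invasive EGF cells from serum-free medium was more negative in FaDu than in Kyse30 for MUC1, by 4.38 ± 0.61 (edgeR adjusted p = 1.32e-06). For MUC16 it was more negative by 2.70 ± 0.84 (0.024), where 9.48% of all genes had a positive difference of this kind. The MUC16 value fell to 1.78 (adjusted p = 0.15) without non-invasive Kyse30 replicates 1 and 3 and to 1.53 (0.17) without replicate 1 of each group. It was also not called without replicate 2 (0.055) or 3 (0.12), and was 5.78 without replicate 4.

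The clearest change among Kyse30 libraries that the choice did not use was in VTCN1. With EGF and AZD6244 it stood at 312, 271, 532 and 398 CPM, every library above the highest serum-free one. It was 1.91 ± 0.31 log2 units above serum-free medium (3.75-fold, edgeR adjusted p = 9.74e-04), where 2.29% of all genes were higher. Without replicate 3 or replicate 4 of each group the difference was 1.65 and 1.92 with adjusted p = 0.061 and 0.058, and without the library of 463124 counts the adjusted p was 1.90e-05. With cetuximab VTCN1 was at 80.6, 60.0, 75.8 and 87.6 CPM, within or below the serum-free range (-0.41 ± 0.30, adjusted p = 0.54). AZD6244 gave 2.31 ± 0.31 more than cetuximab (edgeR adjusted p = 2.52e-04), where 0.593% of all genes were higher.

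VTCN1 thus moved in opposite directions in the 2 lines under EGF and AZD6244 relative to serum-free medium, and the difference of 4.19 ± 0.46 between them passed its own test (edgeR adjusted p = 3.90e-07; 1.27% of all genes had a positive difference called). For MUC15 the same difference, 6.14 ± 0.87 (8.24e-05), rests on 2 FaDu counts and depends on the prior count. MUC1 (1.62 ± 0.57), MUC20 (1.18 ± 0.59) and MUC16 (0.62 ± 0.66) did not pass (0.16, 0.39 and 0.78).

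MUC15 with AZD6244 was at 30.9, 31.1, 36.9 and 16.2 CPM in Kyse30, around its serum-free level (0.11 ± 0.43, edgeR adjusted p = 0.94). With cetuximab it was at 7.26, 6.67, 10.5 and 10.0 CPM, below all serum-free libraries (-1.62 ± 0.45, adjusted p = 0.043). It and MUC16 were the 2 members called lower under cetuximab, where 1.25% of all genes were. Between the 2 inhibitors MUC15 differed by 1.73 ± 0.44 with no overlap but an adjusted p of 0.052; the value was 0.0039 without the library of 463124 counts, which belongs to neither group.

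MUC16 was lower than in serum-free Kyse30 with either inhibitor, at 192 to 509 CPM with cetuximab (-1.42 ± 0.39, adjusted p = 0.042) and 226 to 393 CPM with AZD6244 (-1.34 ± 0.39, adjusted p = 0.049, where 1.61% of all genes were lower), against 661 CPM in the lowest serum-free library. These 2 calls and that of MUC15 under cetuximab were lost without replicate 2, 3 or 4 of each group (adjusted p of 0.20 to 0.37); the groups stayed apart in every library. MUC16 also missed the threshold without the library of 463124 counts, at 0.051 and 0.061. MUC20 was at 20.8 to 44.1 CPM with cetuximab, all below the 78.6 to 97.0 CPM of serum-free spheroids, with an adjusted p of 0.051 (-1.51 ± 0.43; 0.023 without the library of 463124 counts). With AZD6244 it was at 31.9 to 67.7 CPM (-0.80 ± 0.42, adjusted p = 0.35). MUC1 with AZD6244 was at 18.7 to 36.3 CPM, every library above the 16.9 CPM of the highest serum-free one (1.33 ± 0.55, unadjusted p = 0.023, edgeR adjusted p = 0.20).

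Against non-invasive EGF cells of Kyse30 none of the 4 testable mucins was called with cetuximab or with AZD6244 by edgeR, DESeq2 or limma-voom, and none had an unadjusted p under 0.05; 4.93% and 4.56% of all genes were called. MUC16 differed by 0.56 ± 0.38 with cetuximab and 0.63 ± 0.38 with AZD6244 (edgeR adjusted p = 0.48 and 0.46). The latter became 1.55 (adjusted p = 0.046) without non-invasive replicates 1 and 3, and 1.20 (0.016) without replicate 1 of each group. Described without a test, VTCN1 was 2.50 ± 0.31 higher with AZD6244 than in non-invasive cells.

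**Figure D3:**
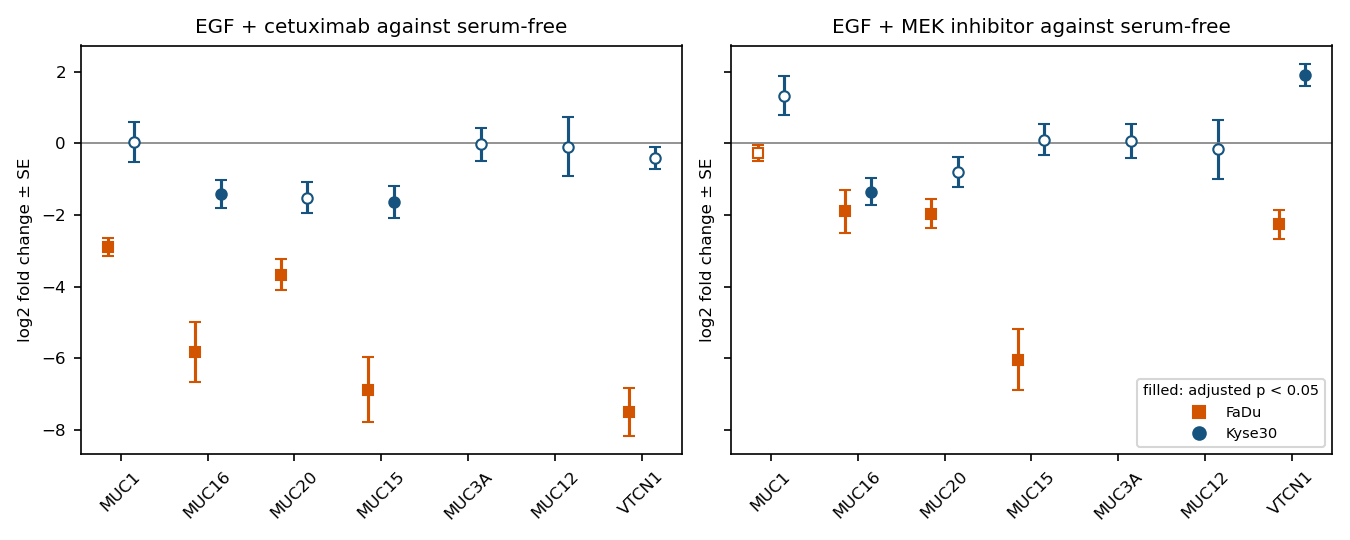
Log2 fold change against serum-free medium (vertical axis, bars SE) of each gene fitted in FaDu (squares) and Kyse30 (circles), with EGF and cetuximab (left) or EGF and the MEK inhibitor (right); filled symbols have an edgeR adjusted p under 0.05. VTCN1 lies at 1.91 in Kyse30 and at -2.26 in FaDu with the MEK inhibitor; the FaDu values of MUC15, and of VTCN1 with cetuximab, depend on the prior count.

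Under cetuximab the change from serum-free medium differed between the lines for 5 genes, each more negative in FaDu. Of all genes 7.07% had a positive difference (Kyse30 minus FaDu). The 5 genes were MUC1 (2.99 ± 0.60), MUC16 (4.46 ± 0.93), MUC20 (2.21 ± 0.62), VTCN1 (7.12 ± 0.71) and MUC15 (5.25 ± 0.97), with edgeR adjusted p from 4.68e-09 to 0.014. Within Kyse30 MUC1 was not lower with cetuximab than in serum-free medium (0.04 ± 0.55, edgeR adjusted p = 0.95). The VTCN1 and MUC15 values rest on 2 and 1 FaDu counts. The MUC20 difference was not called without replicate 2 or 3 of each group (adjusted p = 0.078 and 0.11).

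Across the 20 Kyse30 libraries, the genes with log levels most like MUC15 were GPC4 (r = 0.93), NEURL1B (0.92), MUC20 (0.92), SPNS2 (0.91) and VWA5A (0.91). For MUC20 they were PNPLA7, ZNF383, POU2F3, CAMK2G and MUC16, each at 0.93, and for VTCN1 they were TMT1A (0.95), GSTK1 (0.94), CLIC5 (0.94), SEMA3E (0.92) and PLAAT4 (0.92). The points share group, depth and the library of 463124 counts. They also include the invasive and non-invasive libraries in which MUC15, MUC20 and VTCN1 were chosen for their lower level, so likeness among these 3 genes, and to any gene low in the same libraries, is in part fixed by that choice and supports nothing. Without that library MUC16 was the closest gene to MUC20 (0.94) and MUC20 the 4th closest to MUC15 (0.89), while TMT1A, GSTK1 and CLIC5 remained among the 5 closest to VTCN1.

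Genes that act on or with mucins were compared from lists chosen with earlier results of these data known, for the comparisons that include non-invasive EGF cells. Of the 59 calls named below, 22 held under every alternative tried and are said to have held. The other 37 were lost under at least 1 alternative, 36 of them on leaving out a replicate number from every group, and are given as values that passed the edgeR test in the full set of libraries only.

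Of 24 enzymes of O-glycan synthesis 18 were in the table and 17 tested in FaDu; 2 had a higher and 5 a lower level in non-invasive EGF cells than in serum-free medium, where 25.3% and 24.7% of all genes were called higher and lower, with a median log2 difference of 0.02 against -0.02 over all genes. ST6GALNAC1, which adds the sialic acid of the sialyl-Tn antigen, had 66 counts over serum-free FaDu and 0 over non-invasive cells, at least 26.9-fold lower (edgeR adjusted p = 5.79e-05), and this call held. GALNT6, which starts O-glycans, had 3 counts over serum-free and 47 over non-invasive FaDu libraries, a ratio of 12.8 (exact counting interval 4.12 to 64.3). The other differences named by the rule were -2.03 ± 0.66 for ST6GALNAC4 and 1.74 ± 0.61 for GALNT18. Of all genes 14.8% and 14.9% were higher and lower with AZD6244 than in non-invasive FaDu cells, and of the enzymes 4 and 1 were. They included ST6GALNAC1 (10 counts against 0, at least 3.47-fold), B3GNT3 (-1.41 ± 0.42), GALNT2 (0.67 ± 0.20) and C1GALT1 (0.64 ± 0.21), and none of these 4 calls held. In non-invasive against serum-free Kyse30 cells 2 were higher and 1 lower, where 8.1% and 4.76% of all genes were. GALNT12 was higher (2.08 ± 0.31), which held, while GALNT10 (1.68 ± 0.43) and ST3GAL2 (-2.63 ± 0.83) did not hold. GALNT12 was lower with cetuximab (-1.46 ± 0.29) and with AZD6244 (-1.06 ± 0.29) than in non-invasive Kyse30 cells, calls that did not hold. The 17 enzymes tested in Kyse30 had no edgeR call between invasive and non-invasive cells, where 0.409% of all genes were called. Their median was -0.16 against -0.15 over all genes.

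Of 9 other B7 family genes 4 were in the table. CD274, which encodes PD-L1, was at 0.980 ± 0.722 CPM in serum-free FaDu and 5.59 ± 1.36 CPM in its non-invasive EGF cells (SD, n = 4; log2 2.47 ± 0.65, edgeR adjusted p = 0.0024), the opposite direction to VTCN1, and this call held. CD274 was lower than in non-invasive FaDu cells with cetuximab (-1.94 ± 0.59, adjusted p = 0.039) and with AZD6244 (-1.58 ± 0.58, adjusted p = 0.041), and lower with cetuximab in Kyse30 (-2.87 ± 0.74, adjusted p = 0.022). These 3 did not hold, with adjusted p of up to 0.25, 0.21 and 0.31. VSIR, which encodes the checkpoint protein VISTA, was lower in non-invasive than in serum-free Kyse30 cells (-2.00 ± 0.36), which held. In FaDu its differences of -0.82 ± 0.26 in the same comparison and -0.97 ± 0.27 with cetuximab against non-invasive cells did not hold, nor did those of NCR3LG1 (1.16 ± 0.43) and CD276 (0.46 ± 0.16) between non-invasive and serum-free cells.

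All 10 genes listed as binding partners or sheddases of mucins were in the table; 3 had a higher and 5 a lower level in non-invasive EGF cells than in serum-free FaDu, where 25.3% and 24.7% of all genes did, at a median of -0.19 against -0.02 over all genes. ERBB3 (-2.37 ± 0.22), the galectin LGALS3 (-1.81 ± 0.18) and EGFR (-1.36 ± 0.13) were lower, and EZR, which links membrane proteins to actin, was higher (1.27 ± 0.21); all 4 held. With AZD6244 against non-invasive FaDu cells, EGFR rose by 0.85 ± 0.13 and MET, the receptor for hepatocyte growth factor, fell by 0.92 ± 0.13, where 14.9% of all genes were lower, and both held. ERBB3 (0.81 ± 0.21) and LGALS3 (0.71 ± 0.18) did not hold. With cetuximab the junction protein gene JUP was lower in FaDu (-0.76 ± 0.16), which held, and CTNNB1, which encodes beta-catenin, differed by -0.45 ± 0.12, which did not. In Kyse30, EZR was higher in non-invasive than in serum-free cells (1.43 ± 0.20), which held. MET (0.93 ± 0.20), ERBB2 (-0.99 ± 0.31) and EGFR (-0.72 ± 0.18) in that comparison did not hold. Nor did ERBB2 (1.10 ± 0.31), JUP (-1.02 ± 0.22) and EZR (-0.77 ± 0.20) with cetuximab, or MET (-1.05 ± 0.20) and EZR (-0.90 ± 0.20) with AZD6244, against non-invasive Kyse30 cells.

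Of 15 genes of secretory epithelium 6 were in the table and 5 tested in FaDu. In non-invasive EGF cells 4 were lower and 1 was higher than in serum-free medium, where 24.7% and 25.3% of all genes were. LCN2 (-5.08 ± 0.35), the protease inhibitor SLPI (-3.13 ± 0.26) and the epithelial ETS factor ELF3 (-2.93 ± 0.22) were lower and held, and AGR2, which helps mucins fold, differed by -2.85 ± 0.79 and did not hold. Against non-invasive cells, invasive FaDu cells had less ELF3 (-1.31 ± 0.22), which held. LCN2 had 3 counts over the invasive and 40 over the non-invasive libraries, an 11.2-fold difference (exact counting interval 3.57 to 56.6), and SLPI differed by -1.55 ± 0.31; neither call held. SLPI (3.26 ± 0.26), LCN2 (2.58 ± 0.36) and ELF3 (2.36 ± 0.22) were higher with AZD6244 than in non-invasive FaDu cells and held, and the list's median was 2.36 against 0.03 over all genes. With cetuximab ELF3 was higher (1.10 ± 0.21) and the related factor EHF lower (-2.68 ± 0.29), and both held. In Kyse30, ELF3 was lower in non-invasive than in serum-free cells (-1.46 ± 0.24), which held, and AGR2 differed by -1.38 ± 0.31, which did not. The difference of LCN2 between invasive and non-invasive Kyse30 cells (-3.57 ± 0.80, edgeR adjusted p = 0.047) was lost under 10 of 12 alternatives, and was -1.64 (adjusted p = 0.66) without non-invasive replicates 1 and 3. Against non-invasive Kyse30 cells, AGR2 (1.86 ± 0.32) and ELF3 (1.12 ± 0.23) with AZD6244 and AGR2 (1.20 ± 0.31) with cetuximab did not hold.

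**Figure D4:**
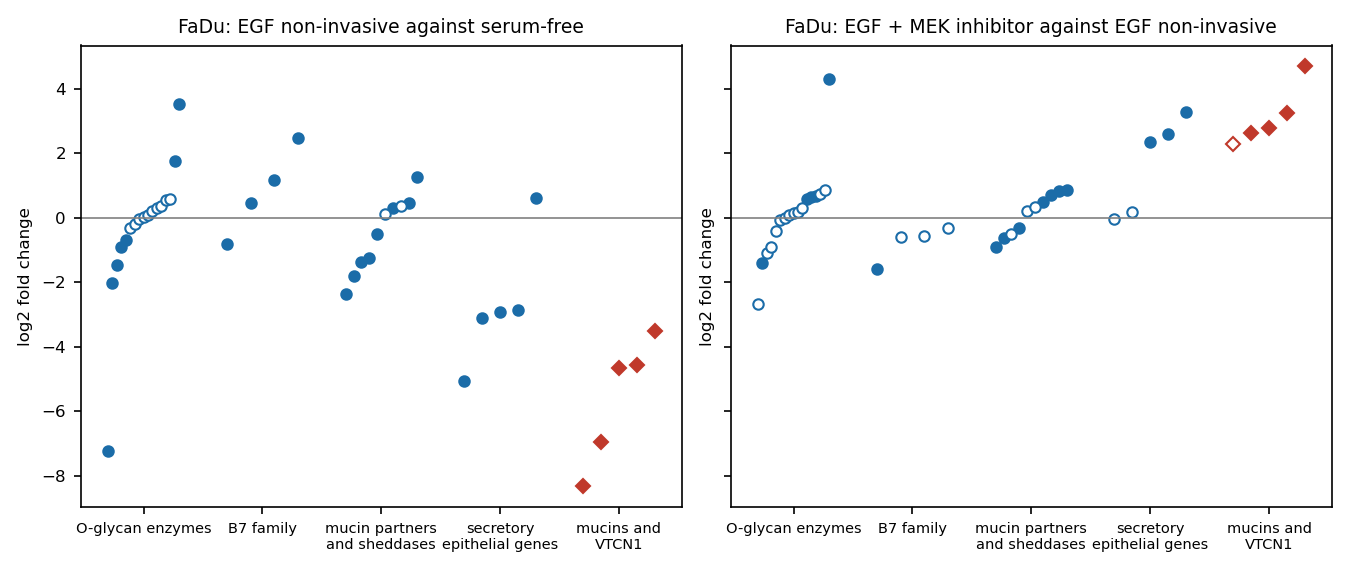
Log2 fold change (vertical axis) of each gene of the 4 lists (blue circles) and of the fitted mucins and VTCN1 (red diamonds) in FaDu, for non-invasive EGF cells against serum-free medium (left) and EGF with the MEK inhibitor against non-invasive EGF cells (right); filled symbols have an edgeR adjusted p under 0.05. The mucins and VTCN1 lie between -8.33 and -3.51 on the left, where the value for MUC15 depends on the prior count.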

How the data were processed

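Libraries were made from total RNA of sorted or unselected spheroid cells with a kit that primes at the 3′ end of transcripts, per the labels' protocols, so counts do not scale with transcript length. STAR, HTSeq and the builds GRCh38 and hg38 are named in the submitters' processing notes. For tool versions, annotation and strand, nothing was given in the sources used here. Raw counts per gene symbol, for 12655 genes in 40 libraries, were deposited by the authors. Groups came from sample titles.

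Counts were fitted with edgeR 4.0.16 (R 4.3.3) by quasi-likelihood with TMM factors and the filterByExpr filter, over the 20 libraries of a line, or all 40 for differences between lines. Benjamini-Hochberg adjustment ran over all genes tested, with a threshold of 0.05. CPM used TMM-scaled library sizes. Log2 fold changes of genes near 0 counts depend on the default prior count of edgeR. The correlations used log2 CPM with a prior count of 2. A group at 0 was set to 3 counts, and groups with 1 to 3 counts got exact 95% intervals where a fold is printed. Alternatives were DESeq2 1.42.0, limma-voom (limma 3.58.1), DESeq2 size factors, other filters, leaving out each replicate number in all groups, leaving out the shallow library, and a replicate block. The omission of 2 non-invasive Kyse30 libraries, the direct comparison of inhibitors, and the differences between lines under each inhibitor were added after seeing the data. The script was tested on simulated counts. Every mucin symbol and VTCN1 is described; of each companion list, up to 4 called genes per comparison with the largest change are named, in the text only for comparisons that include non-invasive EGF cells, and the 5 genes with the highest correlation for likeness. The members and lists were chosen with earlier results of these data known. The 6 secreted mucins listed and the other 6 transmembrane mucins listed (MUC4 among them) were absent from the count table, so nothing is said about their expression. Promoters came from RefSeq and gene positions from GENCODE.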

Additional observations from a re-analysis of the deposited data

Results flagged for a closer look

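In 10 of 64 groups of 4 libraries with a count, 1 library stood apart from the other 3 by Dixon's criterion, which flags about 1 group in 20 by chance. That rate does not apply to 4 of these groups, in which 1 library held every count and the other 3 were at 0. Among the 10 in FaDu were MUC16 at 21.8 CPM in serum-free replicate 3, at 2.90 CPM in non-invasive replicate 4 and at 1.35 CPM in invasive replicate 2. MUC20 stood at 8.60 CPM in cetuximab replicate 4 and at 22.9 CPM in MEK inhibitor replicate 1. The 4 groups with counts in 1 library were the invasive one of MUC16 just given, MUC15 with cetuximab (0.172 CPM, replicate 4), MUC15 with the MEK inhibitor (0.461 CPM, replicate 2) and MUC12 with the MEK inhibitor (0.213 CPM, replicate 4). In Kyse30 the libraries apart were MUC12 at 15.7 CPM in serum-free replicate 3 and MUC3A at 55.2 CPM in cetuximab replicate 1.

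Kyse30 and FaDu differed in their response, by the test of the difference itself (log2, Kyse30 minus FaDu, edgeR), for 9 values. Non-invasive EGF cells against serum-free medium gave 4.38 for MUC1 and 2.70 for MUC16. EGF with the MEK inhibitor gave 4.19 for VTCN1 and 6.14 for MUC15. EGF with cetuximab gave 2.99 for MUC1, 5.25 for MUC15, 4.46 for MUC16, 2.21 for MUC20 and 7.12 for VTCN1.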

How the results depend on the processing

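The 69 gene values of mucins and VTCN1 reported with a test had 774 values under the alternatives; 722 kept direction and side of the threshold, 37 lost the call, 14 gained it and 1 turned, MUC15 in Kyse30 with the MEK inhibitor against serum-free medium, at -0.071 without replicate 2 (up to 0.36 without replicate 4). The causes were not tested. Of the 131 values of the companion genes, with 1428 under the alternatives, 1226 stayed as they were and 202 lost the call. Counts of members called moved by more than 1.5 times as follows, and by 1 in some further cases given after them. In FaDu, cetuximab against non-invasive cells gave 1 with DESeq2 and 0 otherwise. In Kyse30, invasive against non-invasive cells gave 0 with limma-voom, 0 without the 2 non-invasive libraries and 0 to 1 on leaving out each replicate. The MEK inhibitor against non-invasive cells gave 1 without those 2 libraries and 0 to 1 on leaving out each replicate. Cetuximab against serum-free medium gave 0 to 3 on leaving out each replicate. The MEK inhibitor against serum-free medium gave 1 with no filter, 1 without the shallow library and 0 to 2 on leaving out each replicate. The MEK inhibitor against cetuximab gave 2 with DESeq2 size factors, 2 with DESeq2, 2 without the shallow library and 1 to 2 on leaving out each replicate. The difference between lines under EGF gave 1 without the 2 non-invasive libraries and 1 to 2 on leaving out each replicate. By 1 moved, in FaDu, the MEK inhibitor against serum-free medium (3 with DESeq2, 3 to 4 on leaving out each replicate), against non-invasive cells (3 to 4) and against cetuximab (3 to 4). So did cetuximab against serum-free Kyse30 (3 with DESeq2 and with its size factors), the lines in serum-free medium (5 to 6) and their difference under cetuximab (4 to 5).

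Averaged over all pairs of groups, same-numbered libraries did not deviate together. The mean r was 0.009 in FaDu, from -0.189 to 0.310, and 0.022 in Kyse30, from -0.123 to 0.352. Invasive and non-invasive libraries of the same number were not compared apart, so a pairing of these was not excluded. With the replicate block the counts of members called were the same in all 19 comparisons, at 5 for EGF non-invasive cells against serum-free FaDu and 1 for invasive against non-invasive Kyse30 cells, where genes called overall went from 49 to 24. Under the block MUC15 with cetuximab against serum-free Kyse30 was not called (adjusted p = 0.079) and MUC20 was (0.040). Without the shallow library more genes were called in every Kyse30 comparison: 3360 against 1540 for non-invasive cells over serum-free medium, 253 against 49 for invasive over non-invasive cells, 2068 against 590 and 1738 against 546 for cetuximab and the MEK inhibitor over non-invasive cells, 1828 against 375 and 1861 against 467 for the same over serum-free medium, and 563 against 141 between the inhibitors. At a count of 0 the depth allows up to 6.44 CPM in the shallow library and up to 1.27 CPM in the others.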
